A study of Mus musculus with 2 samples.

Results

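The axon guidance ligands and receptors were the semaphorins of classes 3 to 7 with their plexin and neuropilin receptors, the ephrins with the Eph receptors, the Slits with the Robo receptors, and netrins 1 to 5. Members were the genes whose probe accession mapped to a mouse symbol of 1 of these 8 families. This gave 64 genes, 35 ligands and 29 receptors or coreceptors, with 83 of the 39429 probes present on both arrays. Of the 64, 58 passed the filter on dim probes, which asks for most spots well above background in the same group on both arrays, and entered the test among 20629 genes in all. Genes that pass it are called above background here. The RNA came from ureters of NMRI mouse embryos at E14.5, and each of 2 two-colour arrays compared 1 RNA labelled Tbx2/Tbx3cDKO with 1 control RNA. The knockout genotype was Tbx18(cre/+) together with Tbx2(fl/fl) and Tbx3(fl/fl), so that Cre, made from the Tbx18 locus in progenitor cells of the ureteric mesenchyme, removes both T-box genes in those cells and their descendants. Control embryos were Tbx18(+/+) with Tbx2(fl/?) and Tbx3(fl/?), without Cre, each with 1 allele of Tbx2 and of Tbx3 that the label does not specify. The Tbx18 genotype and Cre thus differ between the groups in both pairs. Their effects cannot be told apart from those of Tbx2 and Tbx3 loss. The knockout RNA carried AlexaFluor647 in replicate 1, the pair from females, and AlexaFluor555 in replicate 2, the pair from males. Effects of sex and of the dyes therefore cannot be told apart. The sources used here do not say how many embryos gave each RNA.

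Guidance cues are secreted or membrane-bound proteins that steer growing axons and migrating cells by attraction or repulsion. Class 3 semaphorins are secreted and bind neuropilins, which pass the signal on through plexins, whereas most membrane-bound semaphorins bind plexins directly. Ephrins and Eph receptors are both membrane-anchored and signal in both directions at cell contacts, Slits repel through Robo receptors, and netrins act through Dcc and the Unc5 receptors. The same proteins pattern blood vessels and mesenchyme, and in the urinary tract Slit2 and Robo2 are known for restricting where the ureteric bud forms.

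The targeted genes were examined first. Tbx3 fell, with a log2 fold change of labelled knockout over control of -1.09 ± 0.10 (SD, n = 2 pairs, adjusted p = 0.000902). Tbx2 rose, by 0.86 ± 0.12 (adjusted p = 0.00244), which goes against the label, and the sources used here do not say whether the probes of these genes lie in the deleted exons. All directions are given for the group labelled knockout. Between 64.3% and 71.6% of spots were well above background in each channel and 0 were saturated. Each of the 2 pairs is a separate sample by its label, the number of arrays limits the precision, and p-values measure only the spread between these samples, largely as pooled across genes by limma. All 14 urothelial, 11 of 11 mesenchymal and 11 of 12 smooth muscle markers were above background. The smooth muscle list had 9 genes that fell, 0 that rose and a median of -2.53.

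Few guidance genes passed the test, and most of those were higher in the labelled knockout. At an adjusted p under 0.05, 5 of the 58 members rose (8.62%, against 1.86% of all genes tested), 1 fell (1.72%, against 1.81%) and 52 did not pass, so that 10.3% passed in either direction, against 3.67%. At an unadjusted p under 0.05, 17 were higher (7.57% of all genes were) and 4 lower (6.54% of all genes were). The ligands Sema5b and Sema3a and the receptors Epha4, Plxna2 and Epha3 rose by 1.31-fold to 1.40-fold, and the receptor Epha8 fell 1.65-fold. These counts take the brightest probe of each gene. A dimmer probe of Epha5 also fell when tested by itself (log2 fold change -0.97, limma adjusted p = 0.00116). The median log2 fold change of the 58 was 0.052, against -0.0022 for all genes. In 28 members (48.3%, against 27.6% of all genes) both pairs were higher in the labelled knockout, and in 16 (27.6%, against 28.1%) both were lower. In 14 the pairs had opposite signs, a smaller share than among all genes. Both labelled knockout RNAs lay above both controls for 22 members (37.9%, against 17.9%) and below them for 9 (15.5%, against 17.7%). The families were chosen with earlier results of these data known, and no test was made over the members as a list. In whole ureters, fewer cells of a type and less RNA per cell cannot be told apart.

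**Figure D1:**
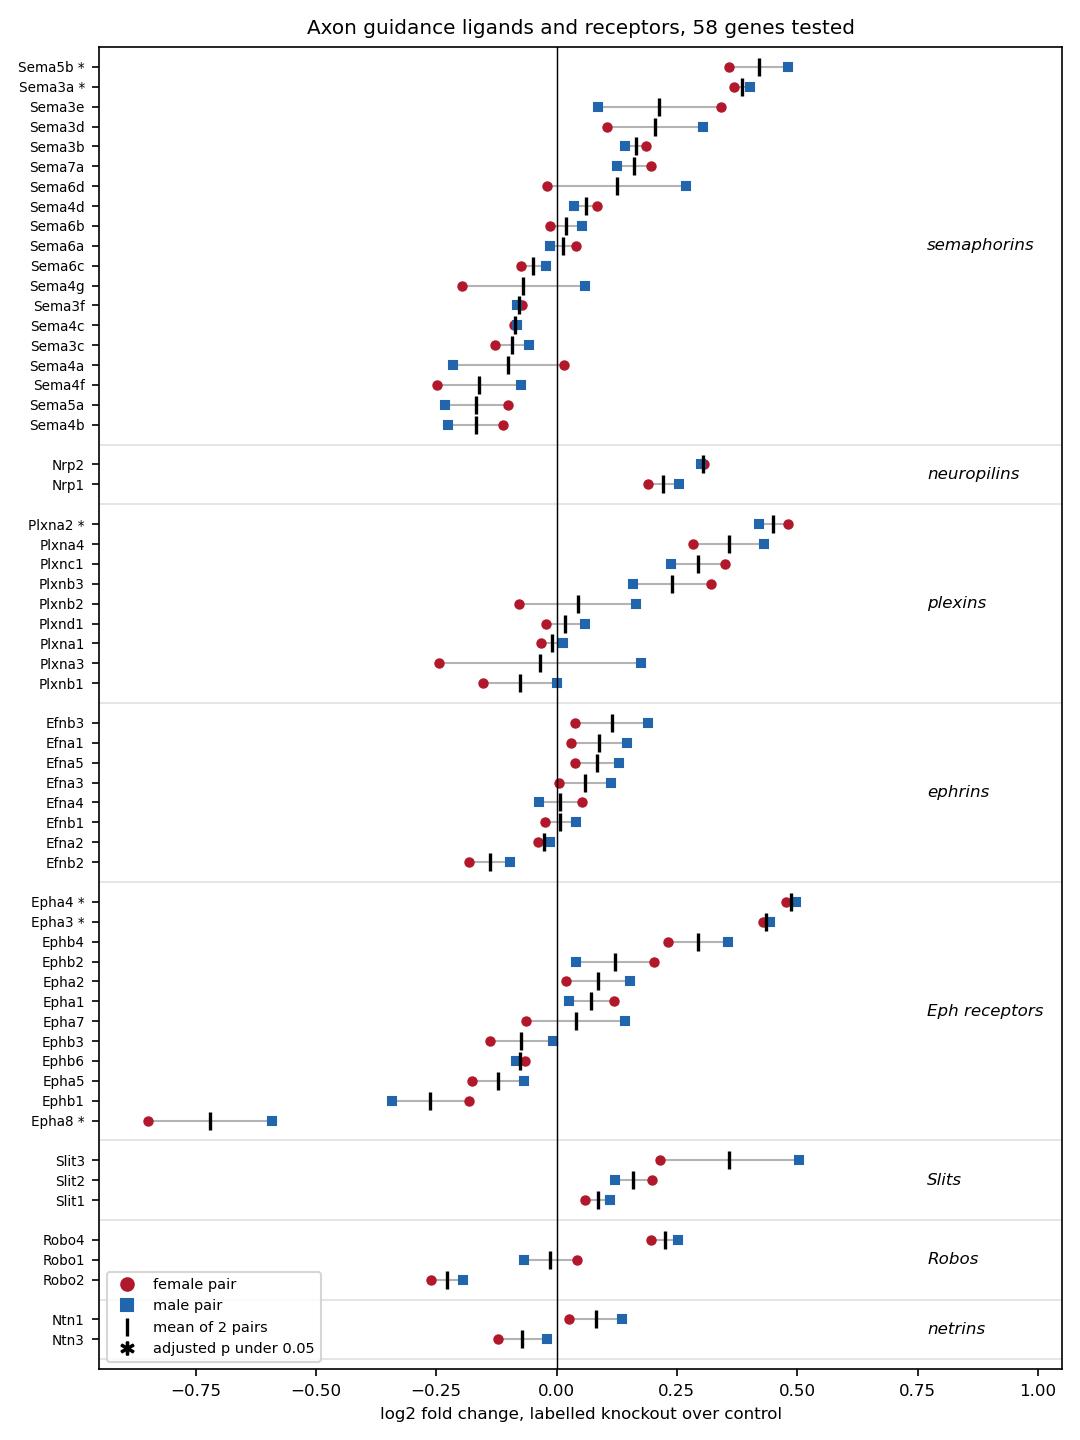
Log2 fold change of labelled knockout over control for the 58 tested guidance genes, grouped by family, with circles for the female pair, squares for the male pair and a vertical tick at their mean. Asterisks mark the 6 genes at an adjusted p under 0.05. Each gene is drawn by its brightest probe. Most means lie close to 0, the 5 genes that rose lie between 0.38 and 0.49, and Epha8 is lowest at -0.72. A dimmer probe of Epha5, not drawn here, gave -0.97.

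Besides smooth muscle, only the lists for neurons, glia and neural crest and for the ureteric mesenchyme held markers past the threshold. Among all genes tested, 1.86% rose and 1.81% fell, and 27.6% were higher in both pairs. At an unadjusted p under 0.05 (limma), 7.57% of all genes were higher and 6.54% lower. Of 15 markers for neurons, glia and neural crest that were above background, 5 rose and 0 fell, with a median of 0.27. Their summed log2 intensity was 15.78 and 15.73 in the labelled knockout RNAs and 15.70 and 15.71 in the controls. Of 11 endothelial markers, 0 passed, with 4 higher and 0 lower at an unadjusted p under 0.05, although 9 were higher in both pairs, with a median of 0.15. The endothelial sum was 17.04 and 17.25 against 16.94 and 16.95. Of 11 markers of the ureteric mesenchyme, Osr1 and Bmp4 rose by 0.43 and 0.36, and Foxf2, Foxf1 and Pdgfra fell by 0.61, 0.49 and 0.39, with a median of -0.065 and sums of 18.63 and 18.65 against 18.64 and 18.60. Of 7 nephron markers, 0 passed, with 2 higher and 0 lower at an unadjusted p under 0.05 and a median of 0.23. The nephron sums were 14.76 and 14.93 against 14.76 and 14.76. In 3 of the 7 the pairs had opposite signs. Six2 was at -0.34 on the female array but 1.11 on the male array, and Wt1 at -0.032 but 0.79. Lhx1 went the other way, from 0.062 to -0.062. The 2 largest means of the nephron list, those of Six2 and Wt1, thus came from the male array only. Of 14 urothelial markers, 0 passed, with 1 higher and 3 lower at an unadjusted p under 0.05 and a median of -0.073. Of 10 immune markers, 0 passed, with 5 higher and 0 lower at an unadjusted p under 0.05 and a median of 0.16. The smooth muscle sum was 17.01 and 16.97 in the labelled knockout RNAs against 18.51 and 18.71. Among the defining markers, Lmod1 of smooth muscle was not above background, and Erg of endothelium did not pass the filter, with most spots well above background in the female control and the male labelled knockout RNA and not in the other RNAs. Their part in the guidance values was not tested.

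Among the secreted class 3 semaphorins, which repel or attract axons and endothelial cells through neuropilins, 1 of 6 tested members rose and 5 did not pass, with a median log2 fold change of 0.18. Sema3a, the ligand classically known for collapsing sensory growth cones, had log2 intensities of 10.44 and 10.53 in the labelled knockout RNAs of the female and male pair and 10.07 and 10.13 in the controls. Both labelled knockout values lay above both controls. Its log2 fold change was 0.38 ± 0.024 (SD, n = 2 pairs, adjusted p = 0.0322). A dimmer probe of Sema3a gave 0.19 ± 0.13, which did not pass by itself. Sema3e, known as a ligand of Plxnd1 on endothelium, was at 0.21 ± 0.18, Sema3d at 0.20 ± 0.14 and Sema3b at 0.16 ± 0.030. The remaining members were slightly lower in both pairs. Sema3c, at log2 intensities of 15.01 and 15.18 against 15.13 and 15.24, was at -0.092 with a 95% interval from -0.25 to 0.069, and Sema3f was at -0.077. Sema3g was not above background.

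The 13 membrane semaphorins of classes 4 to 7 were centred close to 0, with a median of -0.048; 1 rose and 12 did not pass. Sema5b, a transmembrane semaphorin with thrombospondin repeats that is repulsive for axons, had log2 intensities of 10.28 and 10.25 in the labelled knockout RNAs and 9.92 and 9.77 in the controls, with no overlap. It rose by 0.42 ± 0.086 (SD, n = 2 pairs, adjusted p = 0.0294), and a second, dimmer probe gave 0.49 ± 0.25 and passed by itself (adjusted p = 0.0473). Its close relative Sema5a was at -0.17 ± 0.092, with both labelled knockout values (14.68 and 14.67) below the controls (14.78 and 14.90), and did not pass. Sema4b (-0.17), Sema4f (-0.16), Sema4c (-0.086) and, by its brighter probe, Sema6c (-0.048) were also lower in both pairs. Sema4d (0.060) was higher in both. Sema7a, a GPI-anchored semaphorin that binds Plxnc1, was at 0.16 ± 0.049. The pairs had opposite signs for Sema4a, Sema4g, Sema6a, Sema6b and Sema6d. A dimmer probe of Sema6d was higher in both pairs, at 0.18 ± 0.21, and did not pass by itself.

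Both neuropilins, the coreceptors that bind class 3 semaphorins and forms of VEGF, were higher in the labelled knockout RNAs of both pairs without passing the test. Nrp2 had log2 intensities of 12.96 and 13.07 against 12.65 and 12.77 in the controls, and Nrp1 had 13.63 and 13.81 against 13.44 and 13.56. In both genes the groups did not overlap. The log2 fold change of Nrp2 was 0.30 ± 0.0044 (SD, n = 2 pairs, adjusted p = 0.0696), and it was 0.29 ± 0.039 by a second probe. Nrp1 was at 0.22 ± 0.045 (adjusted p = 0.177). Nrp2 passed with a variance trend in limma (adjusted p = 0.0291) and when dim probes were kept (adjusted p = 0.0477).

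Of the 9 plexins, the signal-transducing receptors of semaphorins, 1 rose and 8 did not pass, with a median of 0.044. In both pairs 0 were lower, against 28.1% of all genes. Plxna2, a class A plexin used by class 3 and class 6 semaphorins, had log2 intensities of 13.69 and 13.67 in the labelled knockout RNAs and 13.21 and 13.25 in the controls. The groups did not overlap, and Plxna2 rose by 0.45 ± 0.044 (SD, n = 2 pairs, adjusted p = 0.0191). Its class A relative Plxna4, which pairs with neuropilins in Sema3a signalling, had 10.02 and 10.09 against 9.74 and 9.65. That difference of 0.36 ± 0.10 stood just outside the threshold (adjusted p = 0.0553), and it passed when the arrays were scaled to each other (adjusted p = 0.0470). Plxna1 was at -0.0093 and Plxna3 at -0.035, both with opposite signs in the pairs. Plxnc1, the receptor of Sema7a, was at 0.29 ± 0.081 (adjusted p = 0.0919) and passed with a variance trend (adjusted p = 0.0417). Plxnb3 was at 0.24 ± 0.11. Plxnb1, Plxnb2 and the endothelial receptor Plxnd1 had means between -0.076 and 0.044, with opposite signs in the pairs. A dimmer probe of Plxnd1 was higher in both pairs, at 0.14 ± 0.0045, and did not pass by itself.

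**Figure D2:**
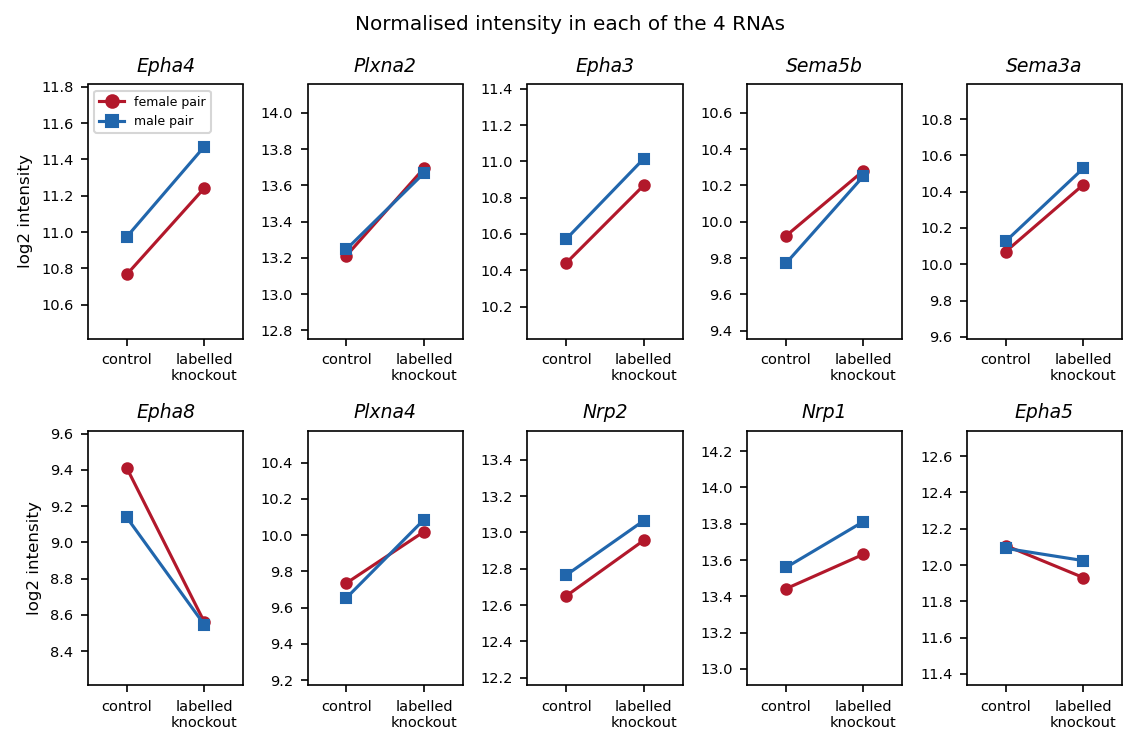
Log2 intensity of the 6 guidance genes that passed the threshold and of Plxna4, Nrp2, Nrp1 and Epha5, in each of the 4 RNAs, with each gene's labelled knockout and control value joined by pair. Each gene is read only against itself, since different probes are not comparable in level; in the 6 genes past the threshold both labelled knockout values lie on the same side of both controls.

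The Eph receptors, receptor tyrosine kinases that bind ephrins on neighbouring cells, held 3 of the 6 members past the threshold. Of 12 tested, 2 rose (1.86% of all genes did), 1 fell (1.81% of all genes did) and 9 did not pass, with a median of 0.056. Epha4, a receptor that binds ephrins of both types, had log2 intensities of 11.24 and 11.47 in the labelled knockout RNAs and 10.77 and 10.97 in the controls. It rose by 0.49 ± 0.015 (SD, n = 2 pairs, adjusted p = 0.0136), the highest mean among the members as processed here. Epha3, a receptor of A-type ephrins, had 10.87 and 11.01 against 10.44 and 10.57. Its rise was 0.44 ± 0.011 (adjusted p = 0.0202). Epha8, another receptor of A-type ephrins, had 8.56 and 8.55 against 9.41 and 9.14. It fell by 0.72 on the log2 scale (SD 0.18, n = 2 pairs, adjusted p = 0.00836), the only member changed more than 1.5-fold in both pairs when the brightest probe stands for a gene. For all 3 genes the groups did not overlap.

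The other A-type receptors did not pass. Epha5 was at -0.12 ± 0.077 (adjusted p = 0.550) by its brighter probe, with 11.93 and 12.02 against 12.11 and 12.09. Its dimmer probe gave -0.97 ± 0.12 and passed by itself (adjusted p = 0.00116), so the value of Epha5 depends on the probe. The 3 probes of Epha7 gave 0.039, -0.022 and -0.25, and Epha1 and Epha2 were at 0.072 and 0.086. Among the 5 B-type receptors, which bind B-type ephrins, 0 passed, with 1 higher and 1 lower at an unadjusted p under 0.05. Ephb4, the venous receptor of Efnb2, had 14.38 and 14.39 against 14.15 and 14.04, a difference of 0.29 ± 0.088 (adjusted p = 0.0955), and a second probe gave 0.26. Ephb1 had 10.66 and 10.46 against 10.85 and 10.80, a difference of -0.26 ± 0.11 (adjusted p = 0.147). Ephb2, Ephb3 and Ephb6 were at 0.12, -0.073 and -0.075. Epha6 was not above background. Epha10 did not pass the filter, as the brighter of its probes had most spots well above background in the male labelled knockout and the female control RNA, both in AlexaFluor555, and not in the other RNAs.

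The ephrins, ligands of these receptors, showed small differences. Of the 8, all above background, 0 passed and 0 had an unadjusted p under 0.05 in either direction, and their mean log2 fold changes lay between -0.14 and 0.11. Efnb2, the arterial ephrin and a ligand of Ephb4, had log2 intensities of 14.01 and 14.05 in the labelled knockout RNAs and 14.19 and 14.14 in the controls. The groups did not overlap, and the log2 fold change was -0.14 ± 0.060 (SD, n = 2 pairs, adjusted p = 0.459), with a 95% interval from -0.30 to 0.024. Efnb3 was at 0.11 ± 0.11 (adjusted p = 0.621), with an interval from -0.059 to 0.29. The A-type ephrins Efna1, Efna3 and Efna5 were at 0.088, 0.059 and 0.084, Efna2 at -0.026, and Efna4 and Efnb1 had opposite signs in the pairs.

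Promoter sequence is shown for 3 genes that rose, 1 from each of the semaphorin, plexin and Eph families, and for Nrp2, the coreceptor nearest the threshold that carries a searched motif. RefSeq windows on GRCm38.p6, from 250 bases before to 50 after each annotated start, were found for 56 of the 64 members and gave 72 windows. The T-box half-site AGGTGTGA, on either strand, was in 1.39% of these windows (that of Sema4a) and in 1.28% of all 32851 windows. Its core GTGTGA, which lies within the half-site, was in 10 of the 72 windows (13.9%) and in 4760 of all 32851. Among the 6 genes past the threshold, the core occurred in the window of Sema3a, 42 bases after the start, and in Nrp2 it began 238 bases before the start. The stretches below are 5′ to 3′ on the strand of the gene and 120 bases long. They cover 120 to 1 bases before the start of Sema3a (chr5:13396664-13396783, plus strand), Plxna2 (chr1:194619709-194619828, plus strand) and Epha4 (chr1:77515089-77515208, minus strand), and 250 to 131 bases before the start of Nrp2 (chr1:62703067-62703186, plus strand). Capitals mark GTGTGA. A match describes these letters and is not a binding site.
Sema3a: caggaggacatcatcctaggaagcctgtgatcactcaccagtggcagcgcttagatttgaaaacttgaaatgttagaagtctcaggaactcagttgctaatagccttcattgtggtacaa
Plxna2: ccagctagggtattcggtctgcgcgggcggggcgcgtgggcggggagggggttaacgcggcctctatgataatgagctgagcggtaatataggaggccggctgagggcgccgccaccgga
Epha4: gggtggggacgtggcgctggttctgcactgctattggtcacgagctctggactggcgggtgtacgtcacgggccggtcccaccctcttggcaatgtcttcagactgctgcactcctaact
Nrp2: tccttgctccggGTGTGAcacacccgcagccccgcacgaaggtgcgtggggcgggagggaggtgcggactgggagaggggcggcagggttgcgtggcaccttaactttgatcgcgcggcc
Guanine and cytosine made up 44.2% of the Sema3a stretch, 67.5% of that of Plxna2, 61.7% of that of Epha4 and 70.0% of that of Nrp2.

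The Slits, secreted repellents of axons, were higher in both pairs for all 3 genes (27.6% of all genes were). Of the 3, 0 passed, with 1 higher and 0 lower at an unadjusted p under 0.05. Slit3 had log2 intensities of 12.51 and 12.48 in the labelled knockout RNAs and 12.30 and 11.97 in the controls. That difference of 0.36 ± 0.20 (SD, n = 2 pairs, adjusted p = 0.101) was larger in the male pair, at 0.50, than in the female pair, at 0.22. Slit2 had 12.55 and 12.60 against 12.35 and 12.48, a difference of 0.16 ± 0.055 (adjusted p = 0.365). The groups of Slit2 and Slit3 did not overlap. Slit1 was at 0.086 ± 0.037, and its control signal in the male pair was not well above background.

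Among the Robo receptors, 3 of 4 were above background and 0 passed, with 1 higher and 1 lower at an unadjusted p under 0.05. Robo2, the receptor through which Slit2 acts on the kidney field, had log2 intensities of 10.92 and 11.13 in the labelled knockout RNAs and 11.18 and 11.32 in the controls. This gave -0.23 ± 0.047 (SD, n = 2 pairs, adjusted p = 0.167), while a second probe gave 0.087 ± 0.018, so its direction depended on the probe. Robo4, the endothelial member, had 13.66 and 13.68 against 13.47 and 13.43, a difference of 0.22 ± 0.039 (adjusted p = 0.169). Robo1 was at -0.013 with opposite signs in the pairs, and Robo3 was not above background. Of the 4 netrins, 2 were tested and 0 passed, with 0 at an unadjusted p under 0.05. Ntn1, the classical attractant, was at 0.081 ± 0.078 (adjusted p = 0.782, 95% interval from -0.085 to 0.25), and Ntn3 at -0.071 ± 0.072 (adjusted p = 0.820). Ntn4 and Ntn5 were not above background.

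**Figure D3:**
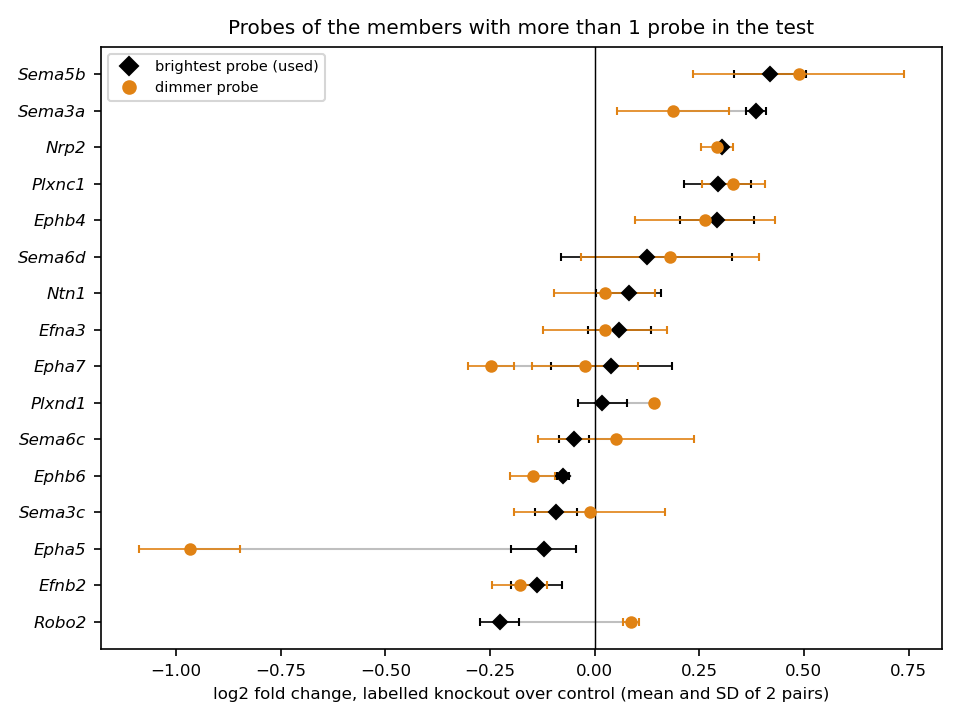
Mean log2 fold change of each tested probe for the 16 guidance genes with more than 1 probe above background, as diamonds for the brightest probe and circles for dimmer ones, with bars of 1 SD over the 2 pairs. The probes of Epha5 lie 0.85 apart and those of Robo2 0.31 apart on both sides of 0, whereas those of Nrp2 differ by 0.011.

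When each probe was tested by itself, 6 of the 75 member probes above background rose (8.0%, against 1.85% of all probes tested) and 2 fell (2.67%, against 1.92%). Of the 16 genes with more than 1 such probe, 3 had probes on both sides of 0, namely Robo2, Epha7 and Sema6c. For Epha5 the probes shared their sign but lay 0.85 log2 units apart, the widest gap among the 16, and for Sema3a they lay 0.20 apart. The gap was 0.067 for Sema5b, 0.037 for Plxnc1 and 0.029 for Ephb4. Epha3, Epha4, Epha8 and Plxna2 had no second probe above background.

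Other genes of the guidance pathway were read from a list of netrin receptors, further cues, growth cone adhesion molecules, partners and intracellular effectors. Of 152 on the array 140 were tested, of which 6 rose (1.86% of all genes rose), 6 fell (1.81% fell) and 128 did not pass, with a median of -0.0016. Among the 7 netrin receptors and partners above background, 1 fell and 0 were higher in both pairs. Unc5c, a repulsive netrin receptor, had log2 intensities of 14.18 and 14.10 in the labelled knockout RNAs and 14.66 and 14.63 in the controls, and fell by 0.51 (SD 0.033, n = 2 pairs, adjusted p = 0.0122). Dcc, at -0.30 ± 0.52, did not pass and had opposite signs in the pairs. Only 1 of the 3 probes of Dcc passed the filter, with log2 intensities from 17.03 to 17.69.

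Among the genes named from that list, Ntf3 had the largest change. This neurotrophin, made by target tissues of sensory and sympathetic axons, averaged 10.83 in the labelled knockout RNAs and 11.85 in the controls, and fell by 1.02 (SD 0.14, adjusted p = 0.00152). Ackr3, which scavenges Cxcl12, rose by 0.54 ± 0.0026 (adjusted p = 0.00927). In both genes the groups did not overlap. Adhesion molecules of growth cones moved in both directions: Cntn1 rose by 0.52, and Cntn6, Ncam1 and Cntn4 fell by 0.77, 0.61 and 0.56, with adjusted p-values from 0.00426 to 0.0143. Of 66 intracellular effectors, 0 passed, with 1 higher and 4 lower at an unadjusted p under 0.05.

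The calls depended on how the arrays were normalized. Under 13 alternatives with a test, 0 of the 6 genes past the threshold changed direction. Changing only the variance model or the threshold keeps every log2 fold change, so no direction could change there. Changing the filter on dim probes keeps the ratio of each probe. All 6 genes lost the call with median centring in place of loess and with the deposited value table. Their log2 fold changes in these settings were of similar size, from 0.42 to 0.52 for the 5 genes that rose and -0.70 and -0.83 for Epha8. The adjusted p of Epha8 then was 0.0685 and 0.0519. Sema5b and Sema3a also lost it with the scanner software's processed signals, and Sema3a with the mean of its probes. Over these alternatives it ranged from 0.00458 to 0.111 for Epha4, from 0.00596 to 0.120 for Plxna2, from 0.00801 to 0.148 for Epha3, from 0.0127 to 0.210 for Sema5b and from 0.0158 to 0.218 for Sema3a.

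**Figure D4:**
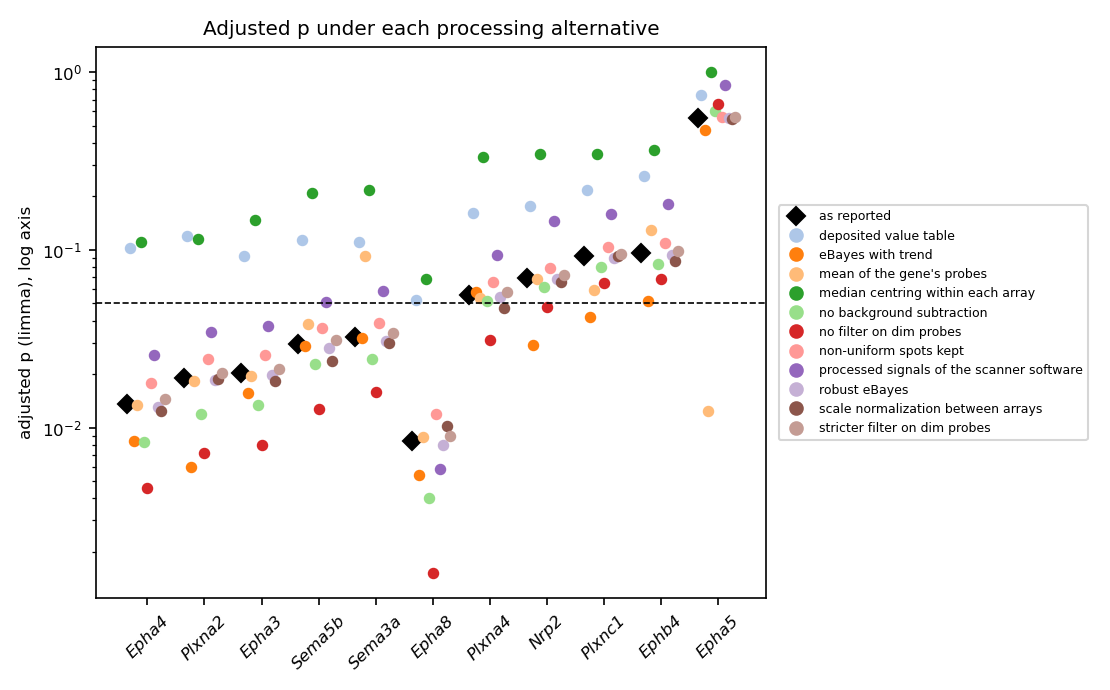
Adjusted p from limma, on a log axis, for the 6 guidance genes past the threshold, Plxna4, Nrp2, Plxnc1, Ephb4 and Epha5, as reported (diamonds) and under each processing alternative (coloured circles), with a dashed line at 0.05. With median centring and with the deposited value table every gene shown lies above the line, and Epha5 lies below it with the mean of its probes.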

How the data were processed

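The submitters' processing notes name Agilent Feature Extraction 10.7.3.1 as the scanner software. The deposited scanner files hold the mean intensity of each spot, its local background, and processed signals that were background-subtracted and dye-normalized with LOWESS, per the file headers. A table deposited by the authors gives, for each probe on each array, a signed fold: the ratio itself where above 1, and otherwise the negative of its inverse. Its log2 values correlated with the processed signals turned to labelled knockout over control at 0.982 (female pair) and 0.984 (male pair) over 24839 probes, which settled its direction. Both columns had a median of 1, and 33.7% (female) and 34.1% (male) of values equalled 1. How it was floored and centred is unknown.

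Mean intensities were corrected with normexp (offset 50) and normalized by loess within each array. Non-uniform spots were left out and the 4 spots of a probe averaged. A probe was kept where more than 0.5 of its spots were well above background in the labelled knockout channel of both arrays or the control channel of both. Accessions were named through a RefSeq table (GRCm38.p6), which named 28328 probes while 11101 kept the file's name, and the brightest probe stood for a gene. The test was limma 3.58.1 under R 4.3.3 (lmFit and eBayes on the log2 ratios), adjusted by Benjamini-Hochberg over 20629 genes. The residual degrees of freedom were 1 and the prior ones 5.21. Levels are log2 intensities after quantile normalization of average brightness between arrays. The procedure was tested on simulated data. Members were selected by symbol alone, but the families and the gene lists were chosen with earlier results of these data known. Full statistics were given for members past the threshold and the 2 of each family with the largest mean change. Up to 8 pathway genes past the threshold were named by size. Other members are given by value, range or count. The value of 1 gene that the rule takes is left out of the text. Genes named as near the threshold, Dcc and the mesenchymal markers past the threshold were chosen after their values were seen. So were the nephron markers named and the markers that did not pass the filter. Alternatives were no background subtraction, processed signals, median centring, scaling between arrays, the deposited table, other filters, probe means, variance models and thresholds, and each replicate left out.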

Additional observations from a re-analysis of the deposited data

Results flagged for a closer look

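In 14 guidance genes the female and male pair had opposite signs by the brightest probe. Both pairs were higher in 48.3% of the tested members and lower in 27.6%, against 27.6% and 28.1% of all genes tested. Opposite signs were thus less frequent in the members than among all genes. There is 1 pair per sex, the dye orientation differs with it, and the difference was not tested. It is given as the log2 fold change of the male pair minus that of the female pair. Plxna3 had the widest gap, 0.42, from -0.24 (female) to 0.18 (male). Of the other plexins, Plxnb2 differed by 0.24, Plxnb1 by 0.15, Plxnd1 by 0.082 and Plxna1 by 0.047. Of the semaphorins, Sema6d differed by 0.29, Sema4g by 0.26, Sema4a by -0.23, Sema6b by 0.066 and Sema6a by -0.053. Epha7 differed by 0.20, Robo1 by -0.11, Efna4 by -0.090 and Efnb1 by 0.064.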

How the results depend on the processing

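Of 5 members higher and 1 lower, 3 were higher with the scanner software's processed signals, 0 higher and 0 lower with median centring and with the deposited table, 0 higher at an adjusted p under 0.01 and 9 at 0.10. With the mean of a gene's probes 2 were lower, Epha5 being added, and with each probe by itself, an alternative chosen after seeing the data, 2 were lower. With 1 array left out no test is possible, and past 1.5-fold on the remaining array 0 to 0 members were higher. Of the other pathway genes (6 higher and 6 lower), 2 were higher and 3 lower at 0.01, 11 higher at 0.10, and 0 higher and 1 lower with the deposited table and with median centring. Past 1.5-fold on a single array, 1 to 2 of them were higher and 3 to 4 lower. Median centring also changed the counts over all genes to 110 higher and 126 lower, and moved their median to 0.024. Of the 52 members that did not pass, 47 passed under 0 of the 13 alternatives with a test, and 8 changed the sign of their mean under 1 or more. The reported test is already paired, since each log2 ratio is taken within an array, and no further replicate block could be fitted. Dim signals limit what can be said of the 6 members that did not pass the filter, and 1 residual degree of freedom limits every test.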
